A study of Mus musculus with 16 samples.

Results

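The liver transcriptome of mice given a ketohexokinase (KHK) inhibitor on a high-fat diet was compared with that of mice given the vehicle on the same diet. The 4 HFD + Inhib libraries and the 4 HFD libraries were chosen by their treatment labels, out of 16 libraries in the series, and no measured value entered that choice. All 16 were from livers of male C57BL/6J mice, with 4 libraries per group. Mice were 6 weeks old when the diet began, and the diet lasted 10 weeks, with treatment in the final 4. In the HFD group the siRNA was a control directed at luciferase, injected at 10 mg/kg at intervals of 2 weeks, and the gavage was methylcellulose. The HFD + Inhib group received the same control siRNA and the inhibitor PF-06835919 (15 mg/kg) by gavage, so the labelled difference between these 8 mice is the compound given by gavage. As a further reference, the HFD + siRNA group received an siRNA against Khk (20 mg/kg) with methylcellulose, and the LFD group, whose diet the labels call chow, received the control siRNA and methylcellulose. That siRNA carries a GalNAc conjugate that hepatocytes take up, whereas a compound given by gavage can reach other tissues. The study's methods add that mice were injected with saline or insulin shortly before the tissue was taken. The labels do not say which mouse received which, so insulin cannot be told apart from the spread within a group or the difference between groups.

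KHK phosphorylates fructose to fructose 1-phosphate, the entry step of fructose into liver metabolism, and further enzymes, triokinase among them, carry its products on towards glycolysis and lipid synthesis. Fatty acids that reach the hepatocyte are bound by carrier proteins, activated to acyl-CoA, and then either stored in lipid droplets or oxidized in mitochondria, in peroxisomes or, from the omega end, by CYP4 enzymes of the endoplasmic reticulum. Many genes of the oxidative routes are known targets of PPARα, a nuclear receptor that binds lipids and pairs with RXR on a repeat of hexamers called DR1. Genes of fructose use, glycolysis and lipogenesis are known targets of ChREBP, which senses carbohydrate and binds E-boxes.

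The values are expected counts, the number of reads estimated for each gene, and levels are given as normalized CPM, counts scaled to a common library size. Library totals were between 24317111 and 35820234 in the HFD group and between 27704386 and 32245606 in the HFD + Inhib group. Of 50559 gene symbols, 18335 passed the filter on low counts and were tested in a single fit of the 16 libraries (edgeR's quasi-likelihood test, Benjamini-Hochberg adjusted p under 0.05). Of these, 1796 were higher in HFD + Inhib than in HFD (9.80%) and 1543 were lower (8.42%). The median log2 fold change over all tested genes was -0.0044. The change was at least 2-fold (1 on the log2 scale) for 502 of the higher and 429 of the lower genes. At 3 or more on the log2 scale there were 72 higher and 29 lower genes. In 2271 genes all 4 HFD + Inhib libraries lay above all 4 HFD libraries (12.4% of the tested genes), and in 1999 genes they all lay below (10.9%). The plot of all genes shows that the rises reached further than the falls.

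**Figure D1:**
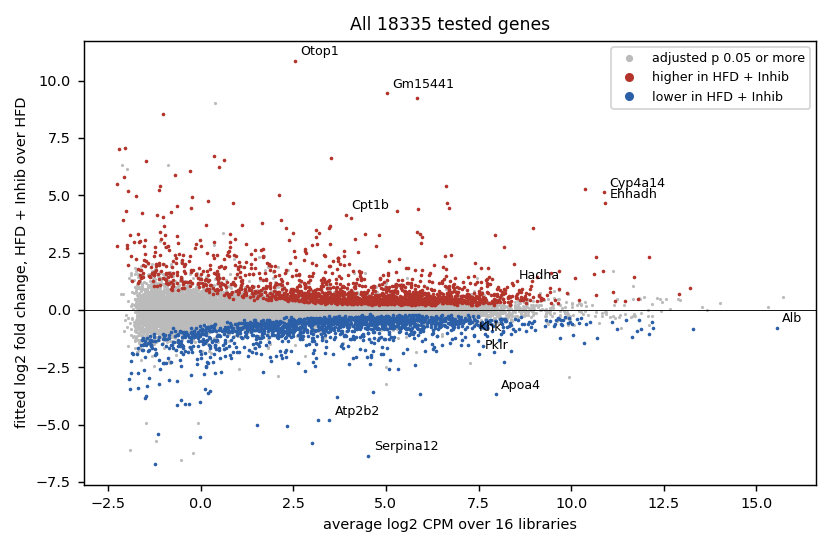
Fitted log2 fold change of HFD + Inhib over HFD (vertical axis) against average log2 CPM over 16 libraries (horizontal axis) for the 18335 tested genes. Red and blue points are the 1796 higher and 1543 lower genes, grey points those with an adjusted p of 0.05 or more, and 12 genes are named. Fitted values of genes with almost no counts in a group, such as Otop1, depend on the settings of the fit.

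A few libraries held counts of genes that a hepatocyte does not use. HFD replicate 2 had 21 counts of Lep, 10 of Adipoq and 9 of Plin1, which are adipocyte genes, 6 of Acta1 of skeletal muscle and 83 of Cd8a of T cells, while the other HFD libraries had 0 for Lep, Adipoq, Plin1 and Acta1. HFD + Inhib replicate 4 had 51 counts of the pancreatic gene Ctrb1 and 444 CPM of Dmbt1, a gene of duct and gallbladder epithelium, which was at 0.0389 CPM or less in the other 3 libraries of that group. Of the LFD libraries, replicate 3 had 206 counts of Ctrb1, 16 of Adipoq, 15 of Plin1 and 11 of Retn, and replicate 4 had 35 of Cd8a and 7 of Adipoq. Results were therefore also computed without HFD replicate 2 and HFD + Inhib replicate 4, an alternative chosen after seeing the data. With 2 libraries fewer, 1193 genes were called higher and 881 lower, and 1947 of the 3339 calls kept their direction and call. The hepatocyte markers Alb, Ttr, Ahsg and Cps1 were detected in every library, as the labelled tissue would have.

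Sequences upstream of 3 members show letters that the factors named above are known to bind, to show where such letters lie near members described below. They are RefSeq promoters of build GRCm38.p6, each with 250 bases before the gene's start and 50 after it, on the gene's own strand. Capitals mark the match. For Fabp1 (chr6:71199629-71199928, plus strand) this is a DR1 repeat, searched as 2 hexamers AGGNCA that are 1 base apart, on both strands, and found here on the minus strand. For Khk (chr5:30921309-30921608, plus strand) it is an E-box, CACGTG, and for Pklr (chr3:89136373-89136672, plus strand) a pair of E-box-like elements, searched as CACNNG and CNNGTG with 5 bases between them, on both strands.
Fabp1: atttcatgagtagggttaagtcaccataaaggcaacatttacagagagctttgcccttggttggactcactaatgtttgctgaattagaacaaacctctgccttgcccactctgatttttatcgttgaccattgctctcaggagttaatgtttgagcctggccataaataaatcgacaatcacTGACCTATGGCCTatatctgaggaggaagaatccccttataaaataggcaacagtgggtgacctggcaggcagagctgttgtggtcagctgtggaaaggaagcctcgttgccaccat
Khk: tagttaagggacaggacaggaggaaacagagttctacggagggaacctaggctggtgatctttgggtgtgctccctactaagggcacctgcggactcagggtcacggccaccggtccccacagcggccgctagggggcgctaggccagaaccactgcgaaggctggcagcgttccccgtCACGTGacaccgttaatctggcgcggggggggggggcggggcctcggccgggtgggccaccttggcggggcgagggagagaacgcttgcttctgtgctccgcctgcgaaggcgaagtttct
Pklr: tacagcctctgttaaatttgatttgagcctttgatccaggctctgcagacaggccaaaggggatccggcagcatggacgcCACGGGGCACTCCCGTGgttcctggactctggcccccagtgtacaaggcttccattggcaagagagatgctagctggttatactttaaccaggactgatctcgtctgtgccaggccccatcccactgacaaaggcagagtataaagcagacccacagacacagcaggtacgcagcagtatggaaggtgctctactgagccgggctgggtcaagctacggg
The DR1 letters occurred in 125 of 32851 promoters (0.381%), the E-box in 2349 (7.15%) and the paired element in 163 (0.496%). Promoters were found for 70 genes of the 6 lists of fatty acid uptake and oxidation described below, and of these only Fabp1 held the DR1 letters within the window. The E-box was found for 6 of the 70 genes, in 7.14% of their promoters, close to its share of all promoters. A second promoter of Pklr held no match. A match is a description of the letters and not evidence of binding in these livers.

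Khk itself was lower in HFD + Inhib. It measured 251, 322, 233 and 251 CPM in the HFD libraries and 112, 152, 94.6 and 120 CPM in the HFD + Inhib libraries. The groups did not overlap, and the fold was 2.21 (log2 fold change -1.14, SE 0.20, adjusted p = 0.00075). In the HFD + siRNA libraries Khk averaged 12.7 ± 3.85 CPM (SD, n = 4), far below both, and the difference between HFD + Inhib and HFD + siRNA was 3.24 on the log2 scale (adjusted p = 4.4e-08). Tkfc, which encodes triokinase, measured 290, 486, 315 and 298 CPM in HFD and 126, 184, 116 and 127 CPM in HFD + Inhib (log2 fold change -1.33, SE 0.16, adjusted p = 3.2e-05). Tkfc was also lower than in HFD + siRNA (log2 fold change -0.90, adjusted p = 0.00055).

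The fructose and polyol list had 12 tested members, of which 5 fell and 1 rose (9.80% of all tested genes were called higher and 8.42% lower). Without HFD replicate 1 or 2, or without HFD + Inhib replicate 3 or 4, 3 fell. Akr1b3, an aldose reductase, and Glyctk, glycerate kinase, fell by 0.52 and 0.43 on the log2 scale, and lost the call under 10 and 5 of 16 alternatives. Aldh3a2, a dehydrogenase of fatty aldehydes that also stands on the omega-hydroxylation list, was the member that rose.

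Among genes of glucose use, Pklr and Slc37a4 fell without overlap between the groups. Pklr, liver pyruvate kinase, measured 214, 350, 269 and 242 CPM in HFD and 41.7, 84.9, 83.5 and 72.9 CPM in HFD + Inhib, without overlap (log2 fold change -1.93, SE 0.23, adjusted p = 3.1e-05). It was at 110 ± 15.7 CPM in HFD + siRNA, and the further difference of -0.63 from that group passed the test (adjusted p = 0.042). Hcn3, which lies opposite Pklr on the other strand, fell too (log2 fold change -2.64), and reads of the overlap cannot be assigned without strand. Slc37a4, the transporter that brings glucose 6-phosphate to glucose-6-phosphatase, fell from 105 ± 13.8 to 47.4 ± 10.9 CPM (log2 fold change -1.14, adjusted p = 0.00027). Of 23 glycolytic and gluconeogenic genes, 4 fell, beside 8.42% of all genes tested, and 1, Pfkfb1, rose, though Pfkfb1 lost the call under 9 of 16 alternatives, among them leaving out HFD replicate 1, 3 or 4 or HFD + Inhib replicate 2, 3 or 4. Without HFD replicate 2 or 3, or without HFD + Inhib replicate 3, 2 fell, a share close to that of all genes. Besides Pklr and Slc37a4 the 4 were Gapdh, called in only part of the alternatives and sharing 24.6% of its 50-base words (stretches of transcript sequence) with Gm7336, and Pfkp (log2 fold change -0.48, adjusted p = 0.045).

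On the list of glycogen metabolism, 4 of 14 tested members fell and 2 rose, beside 8.42% lower and 9.8% higher among all tested genes. The 2 rises lie near the latter share. No rise was called without HFD replicate 1 or without HFD + Inhib replicate 2 or 4. The summed level of the list was 2201 ± 67.2 CPM in HFD and 1648 ± 155 CPM in HFD + Inhib (ratio 0.749, two-sided exact permutation test, unadjusted p = 0.0286, the smallest this design can give). The lists were chosen with earlier results known, so this p-value is only a description. Pygl is the most abundant member of the sum, while 8 of the 14 members were not called and their median was -0.16. Ppp1r3c, a subunit that brings protein phosphatase 1 to glycogen, fell from 82.3 ± 21.8 to 29.5 ± 13.2 CPM (log2 fold change -1.48, adjusted p = 0.0025). Ppp1r3g, another such subunit, went the other way, from 2.55 ± 1.22 to 18.8 ± 6.57 CPM (log2 fold change 2.87, adjusted p = 0.025), and lost the call under 6 of 16 alternatives. Ugp2, which makes the glucose donor of glycogen, fell by 0.94 and Pygl, glycogen phosphorylase of the liver, fell by 0.62 on the log2 scale.

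Genes of fatty acid uptake and oxidation were mostly higher. Over the union of 6 lists (uptake, binding and activation, omega-hydroxylation, acyl-CoA thioesterases, peroxisomal and mitochondrial beta-oxidation and ketone bodies), 73 of 96 tested genes rose and 6 fell, with a median log2 fold change of 0.87. In 67 of the 96 all 4 HFD + Inhib libraries lay above all 4 HFD libraries. Among all tested genes 9.8% were called higher, 8.42% were called lower and 12.4% lay above in this way.

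Ehhadh, the bifunctional enzyme of peroxisomal beta-oxidation, measured 285, 236, 315 and 277 CPM in HFD and 9067, 6816, 5561 and 6448 CPM in HFD + Inhib. The lowest treated library lay well above the highest control, and the fold was 25.1 (log2 fold change 4.65, SE 0.16, adjusted p = 4.2e-11). In LFD it averaged 243 CPM and in HFD + siRNA 177 ± 21.2 CPM. Acaa1b, a peroxisomal thiolase, rose by 2.30 on the log2 scale, but 30.5% of its 50-base words are shared with Acaa1a, so the division of reads between the pair is uncertain.

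In all, 16 of 23 tested genes of peroxisomal beta-oxidation rose and 1 fell. Abcd3, which carries branched and dicarboxylic acyl-CoA into peroxisomes, rose from 531 ± 46.1 to 1746 ± 196 CPM (log2 fold change 1.72). Crat, carnitine acetyltransferase, rose by 1.89 on the log2 scale. The summed level of the list rose from 12140 ± 308 to 35470 ± 4047 CPM (ratio 2.92). Genes that build the organelle rose in part, and their difference from the list above was not tested. Of 16 peroxins 6 rose, beside 9.8% of all tested genes. Pex11a, which divides and enlarges peroxisomes, stood out with 53.3 ± 5.46 CPM in HFD and 279 ± 47.6 CPM in HFD + Inhib (log2 fold change 2.39, adjusted p = 2.3e-07). Pex3, needed to form the organelle, rose by 0.67 on the log2 scale, and the median of the list was 0.22.

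The CYP4A enzymes hydroxylate fatty acids at the omega end. Cyp4a14 measured 201, 74.7, 330 and 197 CPM in HFD and 7368, 6855, 6995 and 6885 CPM in HFD + Inhib (35.0-fold, log2 fold change 5.13, SE 0.39, adjusted p = 3.1e-07). The treated libraries lay close together although the controls ranged widely. Cyp4a10 measured 100.1, 104, 179 and 135 CPM in HFD and 5835, 5114, 4432 and 4460 CPM in HFD + Inhib (log2 fold change 5.26, SE 0.34, adjusted p = 3.4e-08). Cyp4a31 and Cyp4a12b rose by 5.42 and 4.68 on the log2 scale (Cyp4a12b by 5.62 without HFD replicate 2), but Cyp4a10, Cyp4a31 and Cyp4a32 share sequence with each other, and 49.4% of the words of Cyp4a12b are those of Cyp4a12a. A sum over the list does not depend on how reads are divided within it, and the summed level of the 14 tested members of the list was 1601 ± 84.9 CPM in HFD and 15500 ± 1199 CPM in HFD + Inhib (ratio 9.68). The CYP4F relatives were mixed, with Cyp4f14 at 198 ± 22.9 and 78.7 ± 19.1 CPM (log2 fold change -1.33, adjusted p = 5.0e-06). In total 9 members of the list rose and 2 fell. The second fall, Cyp4f18, lost the call under 8 of 15 alternatives, and 1 fell without HFD replicate 1, 2 or 4 or without HFD + Inhib replicate 4.

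**Figure D2:**
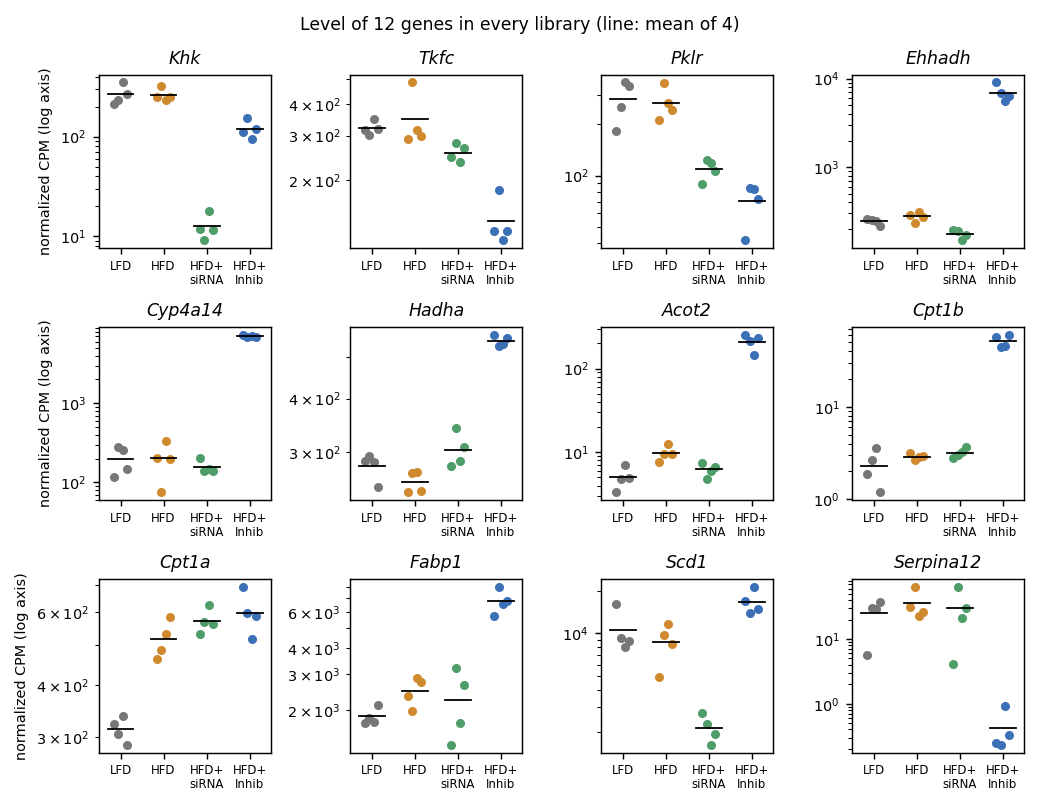
Normalized CPM on a log axis of 12 genes in each of the 16 libraries, by group, with the mean of 4 as a line. Khk, Tkfc, Pklr and Serpina12 lie lower in HFD + Inhib than in HFD, Cpt1a overlaps between these groups, and Ehhadh, Cyp4a14, Hadha, Acot2, Cpt1b, Fabp1 and Scd1 lie higher in all 4 treated libraries.

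Acyl-CoA thioesterases release free fatty acid and CoA from acyl-CoA. Of 12 tested, 10 rose and 1 fell. Acot1, of the cytosol, measured 16.1, 15.3, 17.8 and 15.6 CPM in HFD and 458, 362, 236 and 369 CPM in HFD + Inhib (22.0-fold, adjusted p = 1.7e-08). Acot2, its mitochondrial neighbour, measured 7.66, 9.56, 12.4 and 9.66 CPM in HFD and 254, 213, 143 and 230 CPM in HFD + Inhib (21.4-fold, adjusted p = 2.9e-09). Both rose in every treated library, and replicate 3 was the lowest for each. Acot2 shares 24.5% of its words with Acot1. Acot5 had 1 count over the 4 HFD libraries and 132 over the HFD + Inhib libraries, a ratio of 135 with a 95% counting interval from 23.8 to 5379. Acot11, a thioesterase linked to brown fat, went the other way, from 14.0 ± 2.40 to 4.22 ± 0.713 CPM (log2 fold change -1.73, adjusted p = 2.5e-05).

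Uptake and binding proteins rose in 15 of 17 cases. Slc27a1, a transporter and acyl-CoA synthetase best known from muscle and fat, measured 7.75, 5.93, 5.73 and 7.47 CPM in HFD and 175, 124, 91.7 and 138 CPM in HFD + Inhib (19.7-fold, adjusted p = 4.0e-09). Fabp1, the main fatty acid carrier of hepatocytes, whose promoter is printed above, measured 2346, 1983, 2855 and 2747 CPM in HFD and 5733, 7980, 6596 and 6769 CPM in HFD + Inhib (log2 fold change 1.45, SE 0.22, adjusted p = 0.00020). Cd36, a receptor for fatty acids, rose from 109 ± 10.6 to 443 ± 48.4 CPM (log2 fold change 2.03, adjusted p = 7.4e-06). Carriers and a lipase that mark muscle and fat were among the rises. Fabp3 had 7 counts in HFD and 686 in HFD + Inhib (ratio 100.4, 95% counting interval 48.4 to 250.5), and shares 29.2% of its words with Fabp3-ps1. Fabp4 rose by 3.30 and Lpl, lipoprotein lipase, by 3.17 on the log2 scale. Fabp7 was the member that fell (log2 fold change -0.96), from a low level of 1.87 ± 0.231 CPM, and lost the call under 3 of 15 alternatives.

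Mitochondrial beta-oxidation rose broadly. Of 22 tested genes 19 rose and none fell, with a median of 0.92 on the log2 scale, beside 0.66 for the peroxisomal list. Hadha, a subunit of the trifunctional protein, measured 242, 269, 269 and 244 CPM in HFD and 564, 529, 536 and 553 CPM in HFD + Inhib (log2 fold change 1.09, SE 0.08, adjusted p = 3.4e-07). Acadm, the medium-chain dehydrogenase, rose by 1.26 and Etfdh, which passes the electrons on, by 0.99 on the log2 scale. The carnitine shuttle was uneven. Cpt1a, the liver form of its first enzyme, measured 464, 487, 531 and 583 CPM in HFD and 691, 596, 518 and 587 CPM in HFD + Inhib, which overlapped and did not pass the test (log2 fold change 0.21, adjusted p = 0.17). Cpt1b, the muscle form, measured 3.15, 2.67, 2.85 and 2.93 CPM in HFD and 57.0, 44.1, 45.7 and 60.3 CPM in HFD + Inhib (17.9-fold, adjusted p = 4.0e-09). Its transcript shares 78.6% of its words with the overlapping gene Gm44502, so the reads may belong to either name. Slc22a5, the carnitine transporter, rose by 2.15 on the log2 scale and shares 26.1% of its words with Slc22a21.

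Ketone body genes rose in 4 of 8 cases, and in 2 without HFD replicate 3 or 4 or without HFD + Inhib replicate 2. Among all tested genes 9.8% were called higher and 8.42% lower. Slc16a6, an exporter of ketone bodies, fell from 13.6 ± 5.65 to 7.31 ± 1.49 CPM (log2 fold change -0.90, adjusted p = 0.016), and lost the call under 4 of 16 alternatives, among them leaving out HFD replicate 2 (adjusted p = 0.071). Of the 15 genes of pyruvate dehydrogenase and uncoupling, 8 rose (5 without HFD replicate 1). Pdk4, the kinase that switches pyruvate dehydrogenase off, measured 9.31, 34.0, 21.3 and 8.01 CPM in HFD and 104, 292, 294 and 74.3 CPM in HFD + Inhib (log2 fold change 3.39, adjusted p = 0.00053). In both groups replicates 2 and 3 were the higher ones. Ucp3, an uncoupling protein of muscle, had 5 counts in HFD and 566 in HFD + Inhib (ratio 116, 95% counting interval 49.4 to 358). Of the 5 counts 3 were in HFD replicate 2, and the fitted log2 fold change ran from 6.32 to 7.36 with 1 library left out.

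The transcript of the receptor itself was not called against HFD. Ppara measured 430, 392, 484 and 605 CPM in HFD and 631, 537, 529 and 647 CPM in HFD + Inhib (log2 fold change 0.29, adjusted p = 0.12). It was higher than in HFD + siRNA by 0.42 on the log2 scale (adjusted p = 0.017), with all 4 HFD + Inhib libraries above that group. Among 17 genes of PPARα, its partners and coregulators, 2 rose (Nrip1, a corepressor, and Creb3l3, a liver transcription factor) and 1 fell (Rxrg), and the median was 0.013. These counts lie near the shares of all tested genes, 9.8% called higher and 8.42% lower. Creb3l3 and Rxrg each lost the call under 11 of 16 alternatives and Nrip1 under 5, and no rise was called without HFD replicate 2 or without HFD + Inhib replicate 2.

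**Figure D3:**
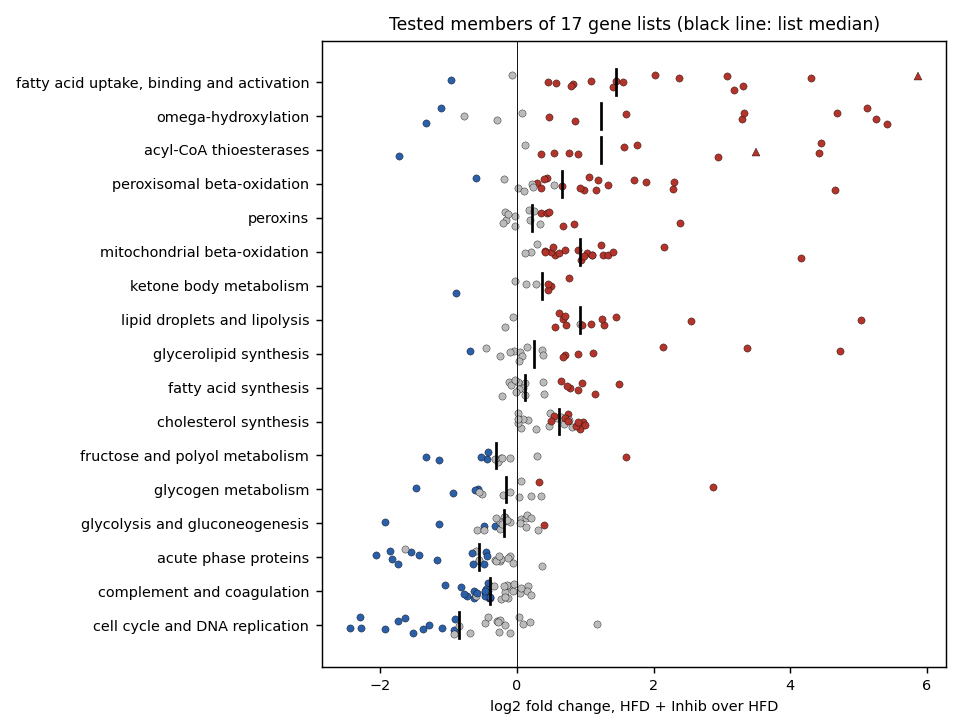
Log2 fold change of HFD + Inhib over HFD (horizontal axis) of every tested member of 17 gene lists. Red and blue points passed the test as higher and lower, grey points did not, triangles are genes whose HFD libraries held at most 3 counts each (set at their value against that floor), and black lines are list medians, which run from 1.45 for fatty acid uptake to -0.86 for cell cycle.

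Lipid storage genes were also higher. Of 15 tested genes of lipid droplets and lipolysis, 12 rose and none fell (median 0.92). Plin2, the coat protein of hepatic droplets, measured 334, 463, 390 and 361 CPM in HFD and 1248, 1071, 811 and 1108 CPM in HFD + Inhib (log2 fold change 1.45, SE 0.15, adjusted p = 6.7e-06). Cidea and Cidec, which fuse droplets and are abundant in fat, rose by 5.03 and 2.55 on the log2 scale, Cidea by 6.30 without HFD replicate 2. Cidea measured 0.265, 1.23, 0.152 and 0.196 CPM in HFD, with replicate 2 apart, and 24, 8.43, 24.7 and 9.20 CPM in HFD + Inhib. Pnpla2, the main triglyceride lipase, rose by 1.09, and G0s2, its inhibitor, by 1.27 on the log2 scale, so a lipase and its brake rose together. In glycerolipid synthesis 7 of 18 rose, beside 9.8% of all tested genes. The rises were led by Aqp7, a glycerol channel (log2 fold change 4.73), and Mogat1, a monoacylglycerol acyltransferase (3.37). Dgat2, which completes triglyceride, fell from 346 ± 40.8 to 215 ± 39.9 CPM (log2 fold change -0.69, adjusted p = 0.0025).

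Fatty acid synthesis was raised in some steps. Of 19 tested genes 7 rose, beside 9.8% of all tested genes, and none fell. Against HFD + siRNA 12 were called higher, where 17.3% of all tested genes were. Acacb, the acetyl-CoA carboxylase at mitochondria, measured 77.5, 155, 96.5 and 87.2 CPM in HFD and 264, 258, 328 and 324 CPM in HFD + Inhib (log2 fold change 1.5, SE 0.18, adjusted p = 3.2e-05). Scd1, which desaturates stearoyl-CoA, measured 4915, 9687, 11596 and 8341 CPM in HFD and 16845, 13815, 21325 and 14855 CPM in HFD + Inhib (log2 fold change 0.95, adjusted p = 0.018). These did not overlap, but Scd1 lost the call without HFD + Inhib replicate 3 (adjusted p = 0.056) or without HFD replicate 1 (adjusted p = 0.053). Fasn, fatty acid synthase, measured 1104, 2776, 1835 and 1066 CPM in HFD and 1376, 1632, 1772 and 1612 CPM in HFD + Inhib, a log2 fold change of -0.085 (adjusted p = 0.86) whose sign turned to 0.26 without HFD replicate 2. Against the HFD + siRNA level of 529 ± 86.0 CPM, Fasn was 1.59 higher on the log2 scale (adjusted p = 0.00020).

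Cholesterol synthesis had 10 of 24 genes higher, beside 9.8% of all tested genes, and none lower (median 0.61). Pmvk, phosphomevalonate kinase, measured 27.3, 41.9, 33.9 and 32.9 CPM in HFD and 44.4, 63.1, 90.9 and 73.3 CPM in HFD + Inhib (log2 fold change 0.997, adjusted p = 0.012). Hmgcs1, the cytosolic HMG-CoA synthase, measured 477, 808, 598 and 561 CPM in HFD and 807, 1151, 1758 and 1076 CPM in HFD + Inhib (log2 fold change 0.97, adjusted p = 0.029). HFD + Inhib replicate 3 was the highest library for both, and the groups overlapped for Hmgcs1, which lost the call under 5 of 16 alternatives. The count was sensitive to single libraries, with 3 genes called without HFD replicate 1 or HFD replicate 3, 4 without HFD replicate 4 or HFD + Inhib replicate 3, 6 without HFD + Inhib replicate 2 or replicate 4, and 11 without HFD + Inhib replicate 1. The summed level was 4629 ± 679 and 6554 ± 1083 CPM (ratio 1.42, two-sided exact permutation test, unadjusted p = 0.0571).

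Among genes with an average of at least 1 on the log2 CPM scale and no overlap between the groups, the 3 largest rises were those of Otop1, Gm15441 and Gm52676. Otop1, which encodes a proton channel, had 0, 1, 0 and 0 counts in the HFD libraries and 981, 283, 509 and 999 in the HFD + Inhib libraries, a ratio of 2839 with a 95% counting interval from 509 upwards. It had no count in any LFD or HFD + siRNA library. Gm15441 measured 0.298, 0.0771, 0.152 and 0.235 CPM in HFD and 202, 140, 76.9 and 100.3 CPM in HFD + Inhib (log2 fold change 9.44, SE 0.49, adjusted p = 2.4e-09). It is transcribed from the strand opposite Txnip, which measured 99.8 ± 18.6 and 179 ± 25.7 CPM (log2 fold change 0.84, adjusted p = 0.053). Without strand, reads of the overlap cannot be told apart.

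By the same rule the largest fall was that of Serpina12, which encodes the secreted protein vaspin, with 31.5, 64.0, 22.9 and 26.5 CPM in HFD and 0.247, 0.233, 0.907 and 0.330 CPM in HFD + Inhib (log2 fold change -6.36, SE 0.86, adjusted p = 8.2e-05, and -7.03 without HFD + Inhib replicate 3). Its level in HFD + siRNA, 29.96 ± 25.2 CPM, was near that of HFD. Apoa4, an apolipoprotein of triglyceride-rich particles, measured 488, 1150, 642 and 448 CPM in HFD and 58.5, 50.8, 59.2 and 45.7 CPM in HFD + Inhib (12.7-fold lower, adjusted p = 4.5e-08). It was at 89.7 ± 8.61 CPM in LFD. In HFD + siRNA Apoa4 was at 174 ± 16.4 CPM, and HFD + Inhib was lower than that group (log2 fold change -1.70, adjusted p = 3.5e-05). Enho, which encodes the hepatokine adropin, fell by 3.82, Lrtm1 by 5.81, Nptx1 by 5.03, Ntrk2, a receptor of neurotrophins, fell by 4.78 and Atp2b2, a calcium pump of the plasma membrane, fell by 4.796 on the log2 scale. H19, an imprinted RNA, fell by 5.06 (by 4.17 without HFD replicate 1), although its HFD libraries spread from 3.08 to 38.8 CPM. Slc22a7, an organic anion transporter, and Hsd3b5, a male-biased steroid dehydrogenase, fell by 3.57 and 3.65, Hsd3b5 by 3.02 without HFD replicate 2.

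**Figure D4:**
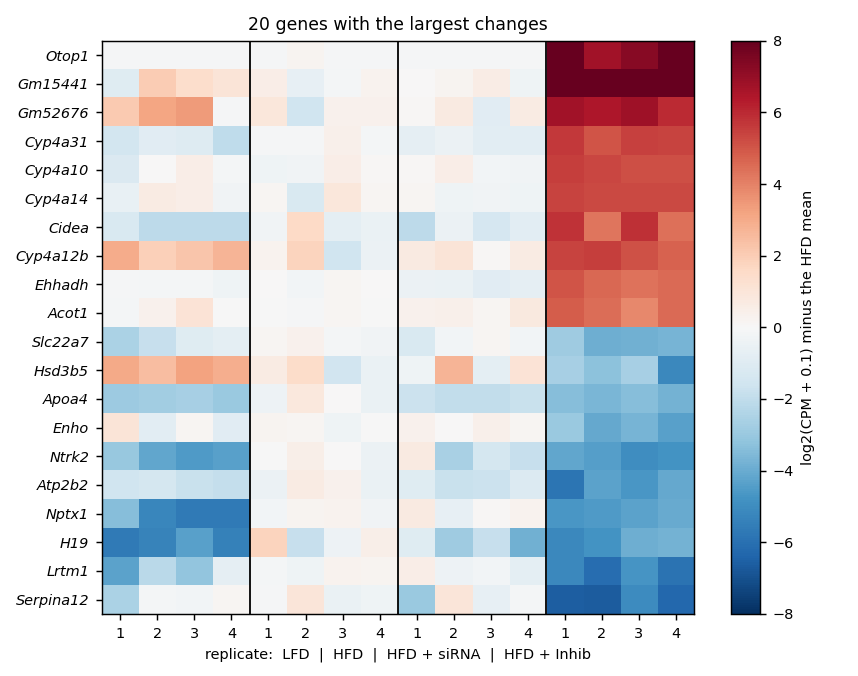
Log2(CPM + 0.1) minus the HFD mean in each of 16 libraries for the 20 genes with the largest changes among called genes of at least 1 on the average log2 CPM scale without overlap between HFD and HFD + Inhib, colours limited at 8. The 10 upper genes are red and the 10 lower genes blue in all 4 HFD + Inhib libraries, and of the lower genes Apoa4, Atp2b2, H19, Lrtm1, Nptx1, Ntrk2 and Slc22a7 are also below every HFD library in all 4 LFD libraries.

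Genes of secreted plasma proteins fell in part, beside 8.42% of all tested genes called lower. Of 25 acute phase genes 12 fell, 13 were not called and none rose (median -0.55), and of 33 complement and coagulation genes 16 fell, 17 were not called and none rose (median -0.40). Itih4, an inter-alpha-trypsin inhibitor chain, measured 1526, 1298, 1396 and 1494 CPM in HFD and 583, 513, 449 and 563 CPM in HFD + Inhib (log2 fold change -1.44, SE 0.13, adjusted p = 1.5e-06). Lcn2, lipocalin 2, fell from 7.53 ± 3.49 to 1.82 ± 0.967 CPM and F11, a coagulation factor, from 59.9 ± 4.65 to 28.8 ± 5.6 CPM. Saa1 fell by 1.75 on the log2 scale but shares 31.1% of its words with Saa2 and lost the call under 4 of 16 alternatives. Without HFD replicate 2, 8 of the 25 acute phase genes were called lower and 16 of the 33 complement and coagulation genes.

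Of 9 tested hepatocyte markers, 4 fell (Alb, Ttr, Ahsg and Cps1), beside 8.42% of all tested genes, 5 were not called and none rose (median -0.27). Alb measured 54080, 42757, 52893 and 54190 CPM in HFD and 29784, 27701, 30234 and 31981 CPM in HFD + Inhib (log2 fold change -0.77, adjusted p = 0.00076). The summed level of the markers, most of it Alb, was 76400 ± 7941 and 49600 ± 1038 CPM (ratio 0.649). In bulk tissue fewer cells of a type and less RNA per cell cannot be told apart, and the part of this shift in the falls of plasma proteins was not tested.

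**Figure D5:**
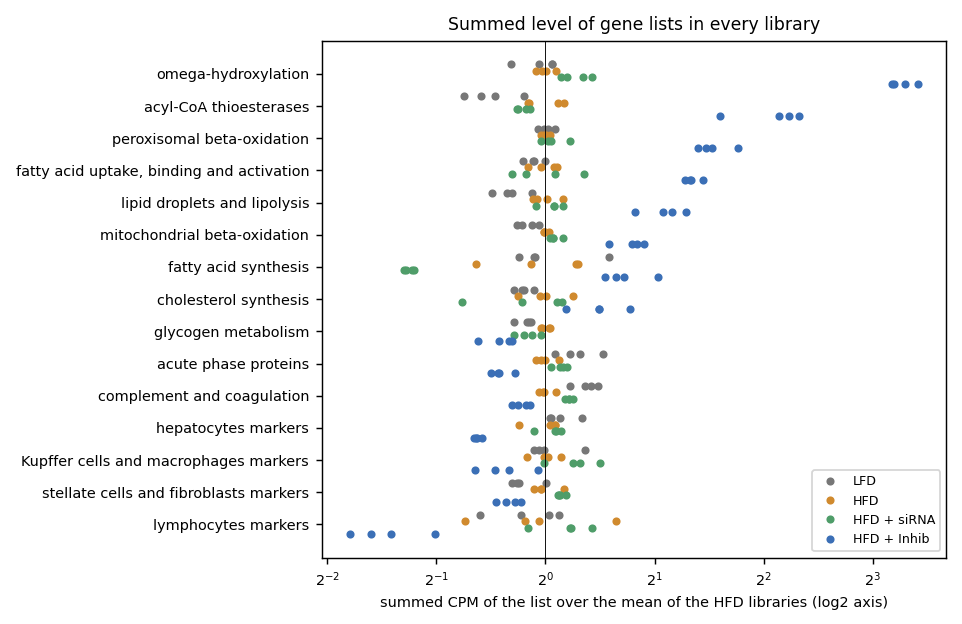
Summed CPM of 15 gene lists in every library, divided by the mean of the 4 HFD libraries, on a log2 axis, with a colour per group. The HFD + Inhib libraries lie to the right of all others for omega-hydroxylation (ratio 9.68), thioesterases (4.30), peroxisomal beta-oxidation (2.92), uptake (2.54), lipid droplets (2.14) and mitochondrial beta-oxidation (1.72), and to the left for hepatocyte markers (0.649) and lymphocyte markers (0.372).

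Markers of other liver cells were lower or did not pass the test, with few exceptions. Among all tested genes 9.8% were called higher and 8.42% lower, so a single call on lists this short lies near those shares. Lymphocyte markers summed to 5.0, 8.91, 3.41 and 5.47 CPM in HFD and 2.83, 2.14, 1.88 and 1.65 CPM in HFD + Inhib, without overlap (ratio 0.372, two-sided exact permutation test, unadjusted p = 0.0286). Of 7 tested 4 fell, Cd4, Ms4a1 and Nkg7 among them (Nkg7 lost the call under 5 of 14 alternatives), and 2 fell without HFD replicate 2, the library highest for this list, or without HFD + Inhib replicate 3 or 4. Of 11 macrophage markers Clec4f and Cd5l, which mark Kupffer cells, fell by 0.51 and 0.54 on the log2 scale. Cd5l lost the call under 6 of 16 alternatives, and leaving out HFD + Inhib replicate 1 gave 4 falls, HFD replicate 3 gave 3, and HFD replicate 2 or 4 or HFD + Inhib replicate 2, 3 or 4 gave 1. Of 8 markers of lipid-associated macrophages 3 fell (5 without HFD replicate 3, 2 without HFD replicate 2) and Cd9 rose. Mmp12, a macrophage elastase, measured 2.62, 3.90, 2.88 and 2.81 CPM in HFD and 0.389, 0.311, 0.259 and 0.180 CPM in HFD + Inhib (log2 fold change -3.42, adjusted p = 1.2e-06). Trem2 fell by 1.56 but was not called under 9 of 15 alternatives. Of 10 stellate cell and fibroblast markers Reln and Pdgfrb fell, the latter not called under 3 of 16 alternatives, and Col1a1 was at 10.5 ± 5.0 and 11 ± 3.22 CPM. Of 9 endothelial markers Lyve1 rose, with the call lost under 8 of 16 alternatives, among them leaving out any 1 HFD library or HFD + Inhib replicate 1 or 3, and none of 3 neutrophil or 7 cholangiocyte markers was called.

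Both tested adipocyte markers rose. Cfd, adipsin, went from 2.59 ± 2.78 to 34.5 ± 16.2 CPM (log2 fold change 3.67, adjusted p = 0.00031, and 4.81 without HFD replicate 2), and Adrb3, an adrenergic receptor of fat, from 3.65 ± 0.563 to 15.2 ± 4.71 CPM. The defining genes Adipoq, Plin1, Retn and Lep had at most 3 counts in any HFD + Inhib library. Of 7 pancreatic genes Cela1 was tested, and it fell by 1.57 on the log2 scale. Of 5 skeletal muscle genes Mylpf was tested and was not called (log2 fold change 0.15), and Ckm was at 0 in all 8 libraries.

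Genes of proliferation fell in part. Of 27 cell cycle and replication genes 12 fell, 15 were not called and none rose (median -0.86), and 7 fell without HFD replicate 2. Mki67, the proliferation antigen, measured 7.09, 13.9, 15.5 and 6.80 CPM in HFD and 3.43, 5.48, 4.82 and 4.11 CPM in HFD + Inhib (log2 fold change -1.28, adjusted p = 0.0041), while LFD was at 3.37 CPM. Cdc20 and Ccnb1, which drive mitosis, fell by 2.29 and 2.44 on the log2 scale from low levels, and Ccnb1 shares 18.9% of its words with Ccnb1-ps. Of 18 genes of collagens and matrix 5 fell, beside 8.42% of all tested genes. Gpc1, a glypican, went from 33.7 ± 5.70 to 6.62 ± 1.20 CPM (log2 fold change -2.35), near its LFD mean of 5.86 CPM, and Prg4 fell by 1.06. Mmp13 had 83 counts in HFD and 5 in HFD + Inhib.

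Apolipoproteins and lipoprotein genes fell in 7 of 23 cases and rose in 3 (1 without HFD replicate 2). Pltp, phospholipid transfer protein, rose from 45.8 ± 6.12 to 177 ± 26.7 CPM (log2 fold change 1.95, adjusted p = 2.7e-06) and Angptl4, an inhibitor of lipoprotein lipase, from 36.5 ± 9.41 to 104 ± 19.5 CPM (1.51, adjusted p = 0.018), a call lost under 2 of 16 alternatives. Apoc2, the activator of that lipase, fell by 0.79, with 78.3% of its words shared with Gm44805. Bile acid genes were lower in 5 of 23 cases and higher in 3, beside 8.42% lower and 9.8% higher among all tested genes. The rises on this list and on the lipoprotein list lie near the share of all genes. The uptake carriers Slco1a4 and Slco1a1 fell by 2.59 and 1.85 and the exporters Abcc3 and Abcc4 rose by 1.0 and 1.09 on the log2 scale. Cyp7a1, the rate-limiting enzyme of bile acid synthesis, overlapped between the groups (126 ± 64.5 and 82.2 ± 49.7 CPM, adjusted p = 0.46).

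Detoxification genes were divided, and their counts can be read beside 8.42% of all tested genes called lower and 9.8% called higher. Of 23 xenobiotic P450 and receptor genes 5 fell and 3 rose. Without HFD replicate 1, 3 or 4, or without HFD + Inhib replicate 1 or 3, 3 fell. The 3 rises and these 3 falls lie near those shares, as do the 2 rises of NRF2 targets below. Cyp2a5 fell from 414 ± 211 to 86.6 ± 51.3 CPM (log2 fold change -2.25, adjusted p = 0.0020) and shares 28.1% of its words with Cyp2a4. Ahr, the aryl hydrocarbon receptor, and Cyp1a2, its known target, fell by 1.11 and 1.06. Por, the reductase that feeds electrons to P450s, rose from 147 ± 33.7 to 362 ± 102 CPM (log2 fold change 1.30). Cyp2b10, the usual marker of CAR activity, was at 1.28 ± 0.267 and 0.698 ± 0.433 CPM and was not called (adjusted p = 0.33). Among 16 NRF2 targets 5 fell, with Gstm3 at -1.79 and Gsta1 at -1.99 (its call lost under 6 of 16 alternatives), and Ephx1 and Gsr rose by 0.69 and 0.72, while Nqo1 was not called (0.34, adjusted p = 0.21). Other genes share 90.5% of the words of Gsta1 and 28.8% of those of Gstm3, so their reads may belong elsewhere. Of 15 carboxylesterases 4 rose (2 without HFD replicate 1) and 4 fell, with Ces1c, a plasma esterase, at 1750 ± 169 and 740 ± 134 CPM.

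The remaining lists can be read against the 18.2% of all tested genes that were called in either direction. Of 33 genes of the urea cycle and amino acid catabolism 3 fell, Prodh, Asl and Cps1, and Aass and Gpt2 rose. Without HFD + Inhib replicate 1 or 2 the falls numbered 7 and 6. Of 12 hepatokines Enho, Lect2 and Ahsg fell, and Igfbp2 and Lepr rose by 1.82 and 2.39. Fgf21, a known PPARα target, measured 5.96, 10.1, 10.6 and 3.91 CPM in HFD and 1.80, 5.91, 5.21 and 2.97 CPM in HFD + Inhib, which overlapped (adjusted p = 0.17). Of 13 male-biased genes 3 rose and 3 fell (5 without HFD + Inhib replicate 1), none of 9 female-biased genes was called, and of 10 genes of the growth hormone axis Igfals and Stat5b fell by 0.68 and 0.42. Igfals lost the call under 9 of 16 alternatives and Stat5b under 4, and neither was called without HFD replicate 1 or without HFD + Inhib replicate 1 or 4. Of 16 stress response genes Chac1 fell (lost under 3 of 16 alternatives), and of 17 immediate early genes Myc rose and Ier2 fell, with calls lost under 7 and 9 of 16. Myc was called only without HFD replicate 2 or HFD + Inhib replicate 3 among the 8 fits that each left out 1 library. None of 17 clock genes was called in the edgeR test, and Nr1d1 was at 104 ± 30.7 and 84.6 ± 10.5 CPM.

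The inhibitor was also set against the knockdown of Khk. Against HFD + siRNA, 3164 genes were higher in HFD + Inhib (17.3%) and 3040 were lower (16.6%), together 33.8% of the genes tested. This comparison shares the HFD + Inhib libraries with the one against HFD, so a gene called in both is no separate evidence. Gapdh was lower than in HFD by 0.32 on the log2 scale (adjusted p = 0.030), with overlapping groups and the call lost under 8 of 16 alternatives, and was higher than in HFD + siRNA by 0.54 (adjusted p = 0.00055). The HFD + siRNA libraries also differed from the other 8 in composition, except replicate 2 in its correlation with GC content, which lay within the HFD range. The Spearman correlation of a gene's deviation with its GC content was between -0.553 and -0.317 in HFD + Inhib, between -0.457 and -0.076 in HFD and between -0.089 and 0.554 in HFD + siRNA, and mitochondrial transcripts made up 0.0766% to 0.119%, 0.0657% to 0.114% and 0.00529% to 0.0453% of counts. LFD replicates 1 and 3 had correlations of 0.564 and 0.623 and mitochondrial shares of 0.0072% and 0.00445%, so such values were not particular to HFD + siRNA. Over the 15858 genes that have GC content and length, 2849 were higher and 2866 lower than in HFD + siRNA without offsets for these, and 2187 and 2440 with them.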

How the data were processed

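RNA from 16 livers was profiled, with 4 libraries per group. The authors deposited expected counts per gene symbol, estimated read numbers that need not be whole (15.1% of values were not). The submitters' processing notes name STAR, RSEM and mm39, without versions, whereas the study's methods describe HTG EdgeSeq, a probe-based assay, so the assay behind the table is not settled here. Nothing used here states strand. No sample column was left unused (0). Replicates are separate samples by label, and p-values measure the spread between them.

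Expected counts were rounded, filtered with filterByExpr (minimum count 10, total 15), scaled by TMM (factors 0.929 to 1.09) and fitted in R 4.3.3 with edgeR 4.0.16 and limma 3.58.1 (quasi-likelihood test, 1 coefficient per group, Benjamini-Hochberg over 18335 genes). On simulated data of 18223 genes, 189 of 200 changed genes were recovered with 6 false calls. There, every gene had the same spread between libraries (dispersion 0.038), changes were at least 2-fold in genes with enough counts, and no GC trend was put in. In the real data the median called rise was 0.60 and the median called fall -0.70 on the log2 scale. The simulation therefore checks the procedure and gives no error rate for the calls reported here. DESeq2 1.42.0, other size factors, filters, thresholds, a replicate block, offsets for GC content and length, and leaving out each replicate were alternatives. Summed levels were compared by a two-sided exact permutation test over 70 divisions of the libraries. These p-values were not adjusted over the 44 lists, which were chosen with earlier results known, and serve as description only. Ratios of genes with almost no counts have 95% intervals that cover counting error only. Shared words are 50-base stretches of a gene's transcripts also found in another gene.

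The members and the 44 gene lists were chosen with earlier results of these data known. Named were preset members of the lists, the 10 largest rises and 10 largest falls among called genes whose groups did not overlap and whose mean log2 CPM was 1 or more, and in each list up to 2 called members per direction, or the most abundant member where none was called. Further genes, among them Dmbt1, Akr1b3, Glyctk, Hcn3, Ten1, Lpl, Fabp4, Gpc1, Itih4, Ahr and Gapdh, were chosen after their values were seen. Values of some single genes are not reported here. Promoters are from RefSeq (GRCm38.p6), and coordinates of the deposited table's build were not used.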

Additional observations from a re-analysis of the deposited data

Results flagged for a closer look

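In 396 groups of 4 libraries examined, a single library stood apart from the other 3 in 31, with a gap to its nearest neighbour, as a share of the group's range, above Dixon's critical value at 95%. Chance alone marks some such groups at that level. HFD replicate 2 was that library 10 times and HFD + Inhib replicate 1 was 8 times. These tallies are not of separate events. Otop1 and Acot5 each had 1 count in the HFD group, so a library had to stand apart, and the summed hepatocyte markers are mostly Alb.

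In HFD replicate 2, Aass was at 207, Alb at 42757, Cfd at 6.70, Cidea at 1.23, Lepr at 2.80, Mogat1 at 2.77, Pltp at 54.9, Tkfc at 486 and Otop1 at 0.0257 CPM, and the summed hepatocyte markers were at 64640 CPM. In HFD replicate 1, Lpl stood apart at 19.4 and Dmbt1 at 0.729 CPM. In HFD replicate 3, Cyp4a31 was at 11.5, G0s2 at 111 and Acot5 at 0.0379 CPM.

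In HFD + Inhib replicate 1, Adrb3 was at 22.2, Etfdh at 469, Serpina3m at 54.9, Slc22a7 at 5.79, Slc27a2 at 2146, Ten1 at 6.75 and Timp2 at 8.66 CPM, and the summed neutrophil markers were at 2.86 CPM. In HFD + Inhib replicate 2, Fabp7 was at 0.427, Gapdh at 1046, Mup3 at 2757 and Tkfc at 184 CPM. In HFD + Inhib replicate 3, Fabp5 was at 61.5 and Serpina12 at 0.907 CPM. In HFD + Inhib replicate 4, Cyp2a5 was at 163 and Dmbt1 at 444 CPM. Dmbt1 was called higher in HFD + Inhib (edgeR, adjusted p = 0.046) although the groups overlapped, and this call rests on that library.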

How the results depend on the processing

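Against HFD, 1796 genes were higher and 1543 lower. An adjusted p under 0.01 left 1010 and 723, a change of at least 1 on the log2 scale 502 and 429, and leaving out HFD replicate 2 and HFD + Inhib replicate 4 together, chosen after seeing the data, 1193 and 881. Leaving out single replicates gave 1378 to 1667 higher and 1120 to 1424 lower genes. Against HFD + siRNA, a change of at least 1 left 820 higher and 700 lower, and an adjusted p under 0.01 left 2112 higher and 1599 lower. GC and length offsets could be fitted for 15858 genes, 86.5% of those tested, which held 3078 of the 3339 calls. In a fit of these genes without the offsets, added after seeing the data, 53.6% of calls were higher (1709 higher, 1477 lower), and with the offsets 45.9% were (1520 higher, 1791 lower), with 2611 of the 3186 calls kept, and the log2 fold change had a Spearman correlation of -0.275 with GC content over 8342 genes. The cause was not tested. No gene called against HFD was called in the opposite direction under these alternatives.

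Of 195 named genes, 178 were called, 138 of them under every alternative, 40 lost the call in at least 1 and 1, Dmbt1, turned its sign. With libraries left out, the log2 fold change of Dmbt1 ran from -4.06 (without HFD replicate 2 and HFD + Inhib replicate 4) to 14.7 (without HFD replicate 1). Of genes that were not called, Fasn ran from -0.26 to 0.26, Mylpf from -0.18 to 0.57, Acly from -0.077 to 0.37, Col1a1 from -0.16 to 0.44 and Cyp2b9 from -1.31 to 0.35. With the offsets Fasn was at 0.13 and Mylpf at -0.0041, and without both libraries Fasn was at 0.26.

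Same-numbered libraries correlated at 0.099, 0.175, 0.491 and 0.199, and those of numbers 3 and 4 alone matched their own number best, so the numbers were not taken to pair the mice. With the replicate block 1801 genes were higher and 1540 lower than in HFD, and 3120 higher and 3077 lower than in HFD + siRNA.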
